A study of Arabidopsis thaliana with 32 samples.

Results

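The genes described here are 6 light-response genes measured in roots of Arabidopsis thaliana: the B-box genes BBX30 and BBX31, the early light-inducible genes ELIP1 and ELIP2, and the bZIP transcription factor genes HY5 and HYH. They were chosen by gene identifier. An entry of the authors' deposited tables was taken where its gene column held 1 of the 6 identifiers, alone or within a merged locus. All 6 were found, of 4802 loci listed in at least 1 of 12 deposited tables. They had been picked because of their values in these same tables, so the levels and fold changes below are descriptions and no test was added to them.

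The study sequenced root RNA of 32 samples, 4 in each of 8 groups. These were Sku6 and Col-0 seedlings, 8 and 4 days old, grown in flight (aboard the International Space Station) or in a ground unit. Col-0 is the wild type, and Sku6 is a line altered in SPIRAL1 (SPR1), a microtubule-associated protein whose loss makes roots skew. Per the labels' protocols, all seedlings grew on Phytagel plates under the light-emitting diodes of the Veggie plant hardware at 100 to 135 µmol of photosynthetically active light per square metre and second, and all were fixed in RNAlater. The ground set ran 48 h after the flight set in a chamber that copied the temperature, CO2 and lighting of the station. The effect of flight thus cannot be told apart from that of the later run or of handling. A sample is a pool of dissected roots, 2 to 3 at 8 days and 5 to 8 at 4 days, and its library was made from 10 ng of RNA. In a pool of whole roots, fewer cells of a type and less RNA per cell cannot be told apart.

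Each deposited table compares 2 groups and gives 1 level per group, in FPKM (fragments mapped to a locus, adjusted for its transcript length and for library size). It holds no value per sample, so neither the spread between replicates nor the sequencing depth was in hand. A locus is listed where the authors' q-value, their p-value adjusted over all loci tested, is at most 0.05. A gene that is not listed is not thereby shown to be unchanged. In the authors' deposited tables SPR1 stood at 7.21 to 13.0 FPKM in Sku6 and at 1210 to 1422 FPKM in Col-0. Of 10 root marker genes 3 were listed in some table, WOX5 at 8.46 to 28.9 FPKM, SCR at 8.00 to 18.6 FPKM and COBL9 at 4.34 to 9.38 FPKM in the authors' deposited tables. Of 11 marker genes of green shoot tissue 8 were listed in some table, and of 9 seed storage genes 0 were listed.

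In light, photoreceptors hold back the COP1/SPA ubiquitin ligase, which in darkness marks HY5 for degradation. HY5 and its close relative HYH then bind DNA at ACGT cores, above all at G-boxes, and act on genes of pigment, flavonoid and chloroplast formation. BBX30 and BBX31 are microproteins with a single B-box zinc-finger domain and act downstream of HY5 as brakes on seedling light responses. ELIP1 and ELIP2 are chlorophyll-binding proteins of the thylakoid membrane that appear when light is strong and help protect the photosynthetic apparatus. HY5 also works in roots, where it is known for its part in nitrate uptake and root growth.

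The 6 genes form 3 pairs of relatives. BBX30 (AT4G15248; TAIR10.1 chromosome 4, 8708841 to 8709482, plus strand) and BBX31 (AT3G21890; chromosome 3, 7708833 to 7709933, minus strand) each have 1 exon, and 73.5% of their aligned coding bases were identical. ELIP1 (AT3G22840; chromosome 3, 8084405 to 8085669, minus strand) and ELIP2 (AT4G14690; chromosome 4, 8418242 to 8419325, plus strand) have 3 exons each and shared 78.9% of aligned coding bases. HY5 (AT5G11260; chromosome 5, 3593335 to 3595073, minus strand) has 4 exons and HYH (AT3G17609; chromosome 3, 6023844 to 6024710, plus strand) has 3, with 59.3% identity. Both B-box microprotein genes lie beside another B-box gene on the opposite strand, BBX30 284 bases from BBX9 and BBX31 486 bases from BBX10. Neither BBX9 nor BBX10 was listed under its own identifier. The files place BBX30 in a locus of 33116 bases that spans 9 protein-coding genes, although its gene column names BBX30 alone. The BBX31 locus spans 3166 bases and 2 protein-coding genes, and its gene column likewise names BBX31 alone. Whether reads of the other genes in these loci enter the BBX30 and BBX31 levels could not be checked. This bears on the levels, ranks and ratios of both genes below. HYH was listed only as a locus merged with its neighbour RBL14 (AT3G17611), which starts 84 bases away, so its levels belong to both genes. That locus spans 27413 bases and 15 protein-coding genes, and reads of the others could not be checked either.

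The 300 bases before the annotated start of the 4 genes with the largest differences between flight and ground are shown here, since ACGT cores are the letters HY5 and HYH bind. They are the plus-strand promoters of BBX30 (chr4:8708541-8708840) and ELIP2 (chr4:8417942-8418241) and the minus-strand promoters of BBX31 (chr3:7709934-7710233) and ELIP1 (chr3:8085670-8085969), from the RefSeq TAIR10.1 genome, read 5′ to 3′ along the gene. Capitals mark each ACGT core with 1 letter on either side.
BBX30: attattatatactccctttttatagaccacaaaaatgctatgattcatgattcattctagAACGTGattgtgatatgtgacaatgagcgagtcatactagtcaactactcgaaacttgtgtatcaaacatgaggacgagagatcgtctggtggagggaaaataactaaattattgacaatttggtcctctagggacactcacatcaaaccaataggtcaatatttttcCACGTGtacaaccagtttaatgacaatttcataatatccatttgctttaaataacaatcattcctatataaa
BBX31: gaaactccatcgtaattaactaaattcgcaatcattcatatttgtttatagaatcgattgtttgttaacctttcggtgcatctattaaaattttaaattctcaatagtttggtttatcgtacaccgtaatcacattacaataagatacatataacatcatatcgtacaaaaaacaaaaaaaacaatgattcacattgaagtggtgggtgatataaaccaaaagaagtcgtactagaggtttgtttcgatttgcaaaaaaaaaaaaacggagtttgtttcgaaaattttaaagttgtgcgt
ELIP1: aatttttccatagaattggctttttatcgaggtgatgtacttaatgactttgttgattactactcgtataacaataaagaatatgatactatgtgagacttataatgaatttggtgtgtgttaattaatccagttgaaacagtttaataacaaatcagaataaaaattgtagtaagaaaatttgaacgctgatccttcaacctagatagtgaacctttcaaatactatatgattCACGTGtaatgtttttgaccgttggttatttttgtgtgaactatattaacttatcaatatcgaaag
ELIP2: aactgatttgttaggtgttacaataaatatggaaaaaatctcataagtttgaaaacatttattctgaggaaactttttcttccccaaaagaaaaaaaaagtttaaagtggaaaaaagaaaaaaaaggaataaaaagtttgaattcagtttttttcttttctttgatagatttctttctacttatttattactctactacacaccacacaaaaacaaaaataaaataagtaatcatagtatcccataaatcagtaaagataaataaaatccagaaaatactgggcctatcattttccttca

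BBX30 and ELIP1 each held a G-box (CACGTG), and BBX31 and ELIP2 held no ACGT core in this window. The G-box of BBX30 lay at −72 to −67 from the start and that of ELIP1 at −66 to −61. BBX30 also held a T/G-box (CACGTT, on the opposite strand of the gene) at −240 to −235 from the start. In the HY5 promoter a T/G-box lay at −9 to −4, and the HYH promoter held 2 ACGT cores outside both boxes. Both strands were searched, and every G-box and T/G-box contains an ACGT core. Over 27443 genes, 7.09% had a G-box in this window, 8.71% a T/G-box and 49.0% an ACGT core. The evening element (AAAATATCT) of clock-controlled promoters was in none of the 6 windows and in 2.79% of all. In the longer window of 1000 bases each of the 6 genes held at least 1 ACGT core, as did 85.0% of all genes. A match is a run of letters and no measured binding site.

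**Figure D1:**
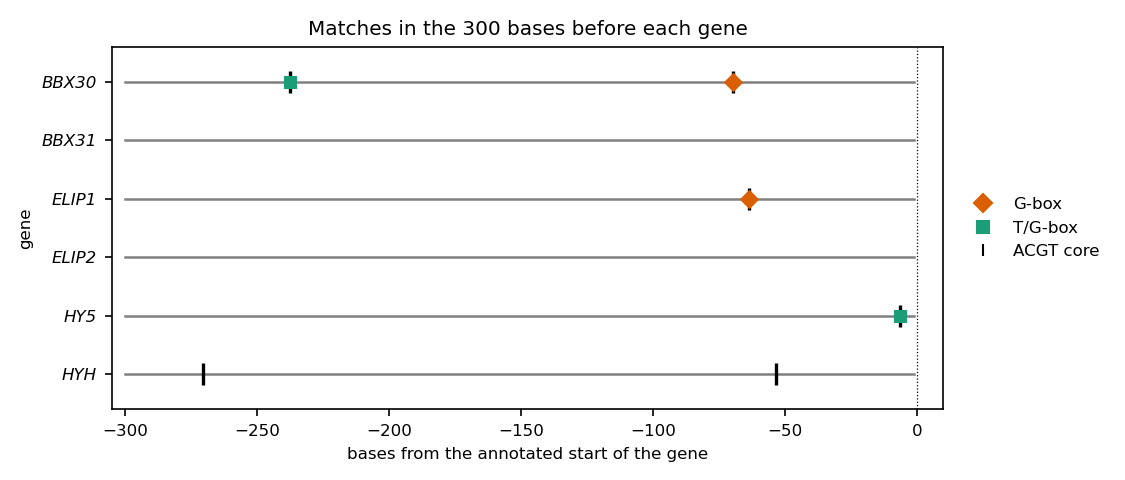
Matches in the 300 bases before the annotated start of each gene. The horizontal axis is the distance in bases from the start, diamonds are G-boxes, squares are T/G-boxes and ticks are ACGT cores. BBX30 has a G-box at −72 to −67 and ELIP1 at −66 to −61, and BBX31 and ELIP2 have no match.

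Flight was compared with ground in each genotype and age. All 6 genes were lower in flight in both 4-day comparisons, and 5 of them, all but HYH, were lower in both 8-day comparisons. ELIP1 and BBX30 differed most, up to 12.1-fold and 12.3-fold in 4-day Sku6 roots, and HY5 least, by 1.43-fold to 1.46-fold. The authors' deposited tables thus listed the genes in 22 of 24 possible cases, all lower in flight. Over all loci the authors tested, 1.43% were listed as lower in Sku6 at 8 days, 2.8% in Col-0 at 8 days, 2.28% in Sku6 at 4 days and 4.11% in Col-0 at 4 days. The genes were chosen from these very comparisons, so nothing is read from their count.

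BBX30 stood at 8.03 FPKM in flight and 33.0 FPKM on the ground in 8-day Sku6 roots, at 8.92 in flight and 41.5 on the ground in 8-day Col-0, at 4.40 in flight and 54.2 on the ground in 4-day Sku6, and at 4.75 in flight and 31.2 on the ground in 4-day Col-0, in the authors' deposited tables. The flight groups of both genotypes were lower at 4 than at 8 days, and the ground level was highest in 4-day Sku6. The deposited log2 fold changes of BBX30 were −2.04, −2.22, −3.62 and −2.72 in that order in the authors' deposited tables. Among loci listed as lower in flight, this was the largest decrease of 444 in 4-day Sku6 and of 806 in 4-day Col-0, the fifth of 560 in 8-day Col-0 and number 9 of 282 in 8-day Sku6. The q-value did not follow the size. In 4-day Col-0 the authors' deposited table gave BBX30 a q of 0.0385, against 0.00185 for BBX31, ELIP1 and ELIP2, all with smaller folds.

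BBX31 stood lower than BBX30 in every group on the FPKM scale, which allows for length. Its levels were 4.71 FPKM in flight and 17.6 FPKM on the ground in 8-day Sku6, 4.48 in flight and 15.6 on the ground in 8-day Col-0, 3.87 in flight and 19.5 on the ground in 4-day Sku6, and 3.70 in flight and 12.5 on the ground in 4-day Col-0, in the authors' deposited tables. The flight levels lay within a 1.27-fold range, tighter than the 2.03-fold range of BBX30. The flight decreases of BBX31 were 3.74-fold, 3.48-fold, 5.03-fold and 3.37-fold in the same order, by the authors' deposited tables. Set against BBX31, BBX30 was 1.14 to 1.99 times as high in the flight groups and 1.84 to 2.82 times as high in the ground groups. The level ranges of that ratio overlapped between flight and ground, but in each genotype and age the ratio was lower in flight.

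ELIP1 had 18.2 FPKM in flight and 104 FPKM on the ground in 8-day Sku6, 35.8 in flight and 106 on the ground in 8-day Col-0, 10.2 in flight and 123 on the ground in 4-day Sku6, and 18.2 in flight and 97.4 on the ground in 4-day Col-0, in the authors' deposited tables. The 4 ground groups lay within 1.27-fold of each other and the 4 flight groups spread over 3.43-fold, with Sku6 at 4 days lowest and Col-0 at 8 days highest. The ELIP1 log2 fold changes were −2.52, −1.57, −3.59 and −2.42 in the authors' deposited tables, and q was between 0.00185 and 0.00373. ELIP1 came second only to BBX30 among the decreases of both 4-day comparisons and was number 3 of 282 in 8-day Sku6 and number 14 of 560 in 8-day Col-0.

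ELIP2 had 28.7 FPKM in flight and 104 FPKM on the ground in 8-day Sku6, 43.9 in flight and 113 on the ground in 8-day Col-0, 21.0 in flight and 121 on the ground in 4-day Sku6, and 29.3 in flight and 130.4 on the ground in 4-day Col-0, in the authors' deposited tables. As for ELIP1, the lowest flight level was in 4-day Sku6 and the highest in 8-day Col-0, with a narrower spread of 2.07-fold. The ELIP2 decreases were 3.61-fold, 2.57-fold, 5.77-fold and 4.45-fold in the authors' deposited tables, each smaller than that of ELIP1. On the ground the ratio of ELIP1 to ELIP2 was 0.75 to 1.02. In flight it was 0.49 to 0.82, and lower than on the ground in each genotype and age.

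**Figure D2:**
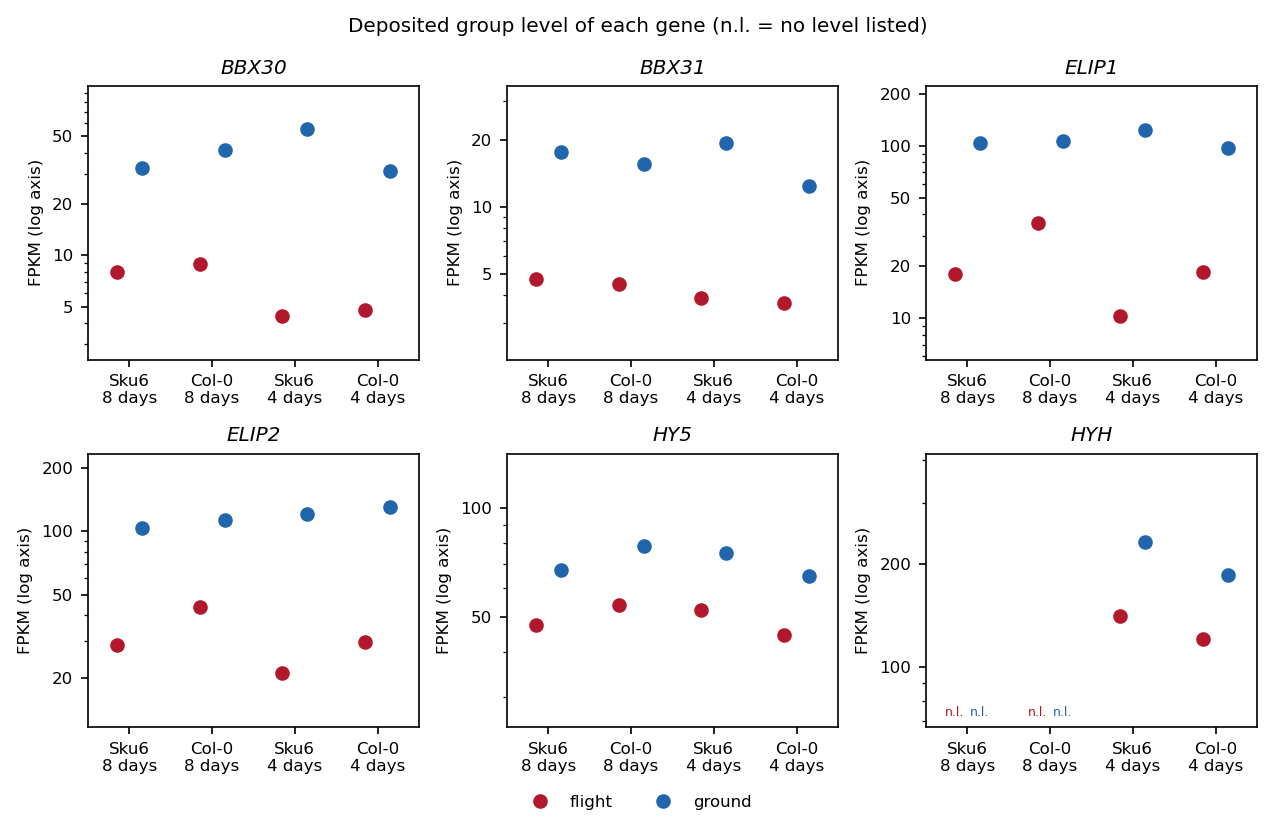
Deposited level of each gene in FPKM (log axis) by genotype and age, with flight in red and ground in blue. Each point is 1 level for a group of 4 samples, with no spread in hand, and is the mean over the tables that list the group. In all groups with a level the flight point is below the ground point, from HY5 with 44.5 to 53.9 FPKM in flight and 65.0 to 78.9 on the ground to ELIP1 with 10.3 to 35.5 in flight and 97.4 to 123 on the ground. No level was listed for HYH at 8 days.

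HY5 was lower in flight by much less than the 4 genes above. It had 47.4 FPKM in flight and 67.6 FPKM on the ground in 8-day Sku6, 53.9 in flight and 78.9 on the ground in 8-day Col-0, 52.2 in flight and 75.3 on the ground in 4-day Sku6, and 44.5 in flight and 65.0 on the ground in 4-day Col-0, in the authors' deposited tables. The decrease was 1.43-fold to 1.46-fold in all 4 comparisons, with q from 0.00263 to 0.00917, in the authors' deposited tables. Among loci listed as lower, ordered from the largest decrease, HY5 was number 209 of 282 in 8-day Sku6, 262 of 560 in 8-day Col-0, 386 of 444 in 4-day Sku6 and 589 of 806 in 4-day Col-0. Its log2 fold change in flight differed by 0.02 between the genotypes at 4 days and by 0.04 at 8 days, differences that were not tested. HYH with RBL14 had 141 FPKM in flight and 232 FPKM on the ground in 4-day Sku6, and 121 in flight and 186 on the ground in 4-day Col-0, in the authors' deposited tables. Those decreases were 1.65-fold (q = 0.0255) and 1.54-fold (q = 0.0428) in the authors' deposited tables. The merged HYH locus stood 2.69 to 3.08 times as high as HY5 in the 4 groups where both had a level.

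For the 5 genes with a level in all 8 groups, every flight level was below every ground level. The gap was narrowest for HY5, whose lowest ground level was 1.21 times its highest flight level, and widest for BBX30 at 3.50 times. Of 624 loci with a level in all 8 groups, 10.9% showed this order and 3.37% the reverse. Loci reach 8 levels only by being listed in several tables, so those shares describe listed loci.

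The size of the flight difference was nearly the same in all 4 comparisons for HY5 and less even for BBX30, BBX31, ELIP1 and ELIP2, and this was not tested because no value per sample was in hand. The log2 fold change of ELIP1 was lower in Sku6 than in Col-0 by 1.17 at 4 days and by 0.95 at 8 days in the authors' deposited tables. For ELIP2 the same differences were 0.37 and 0.49. The log2 fold change of BBX30 was lower in Sku6 by 0.90 at 4 days, whereas at 8 days that of Sku6 was above that of Col-0 by 0.18. For BBX31 the log2 fold change was lower in Sku6 by 0.58 at 4 days and by 0.10 at 8 days. These are differences of fold changes and not of levels. At 4 days BBX30 had 4.40 FPKM in Sku6 and 4.75 in Col-0 in flight, and 54.2 and 31.2 on the ground. BBX31 had 3.87 and 3.70 in flight, and 19.5 and 12.5 on the ground, all in the authors' deposited tables. From the 4-day to the 8-day comparison the decreases of ELIP1 became smaller by 1.08 log2 in Sku6 and 0.85 in Col-0, and those of ELIP2 by 0.68 and 0.79. For BBX30 the decrease became smaller by 1.59 in Sku6 and 0.50 in Col-0. That of BBX31 became smaller by 0.43 in Sku6, while in Col-0 its log2 fold change was lower at 8 days by 0.04. The 4 flight comparisons share no samples with each other, but all come from the same flight set and the same later ground set. A difference between those sets other than flight would be common to all 4.

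**Figure D3:**
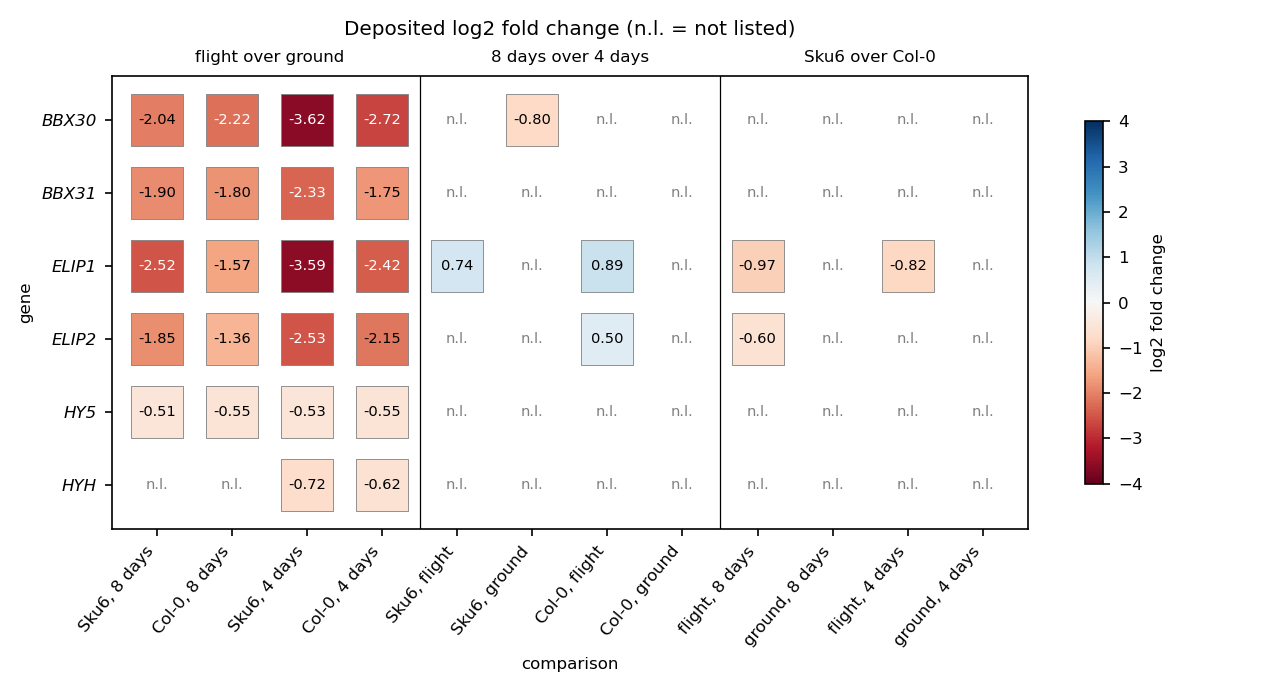
Deposited log2 fold change of each gene (down the page) in the 12 comparisons (across), with place, age and genotype side by side. Red is lower and blue higher in the first-named group, and n.l. marks a gene that is not listed. Flight fills 22 of 24 cells, from −0.51 to −3.62, while age fills 4 and genotype 3.

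Age was compared within each genotype and place. The authors' deposited tables listed 4 of 24 possible cases for the 6 genes: 3 higher at 8 days, all of them ELIP genes in flight, and 1 lower, BBX30 in ground Sku6. In the authors' deposited tables ELIP1 had 17.6 FPKM at 8 days and 10.5 at 4 days in flight Sku6 (log2 0.74, q = 0.0178), and 35.0 FPKM at 8 days and 18.8 FPKM at 4 days in flight Col-0 (log2 0.89, q = 0.00174). ELIP2 had 42.8 FPKM at 8 days and 30.3 at 4 days in flight Col-0 (log2 0.50, q = 0.0193) in the authors' deposited table. BBX30 had 32.0 FPKM at 8 days and 55.8 at 4 days in ground Sku6 (log2 −0.80), and its q of 0.0475 was the closest of all entries of the 6 genes to the threshold in the authors' deposited tables. Over all loci tested, 8.35% were listed in flight Sku6 (3.92% higher at 8 days), 9.43% in ground Sku6 (4.67% lower at 8 days), 6.78% in flight Col-0 (3.33% higher at 8 days) and 11.2% in ground Col-0, where 0 of the 6 genes were. HY5, HYH and BBX31 were not listed for age. The HY5 levels were 1.21 times as high at 8 days as at 4 days in Col-0 flight and again in Col-0 ground, and 0.91 and 0.90 times as high in Sku6 flight and Sku6 ground, by the levels in the flight tables.

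Listed green-tissue markers were lower at 8 days beside all of these age entries, whether the entry was higher (ELIP1 and ELIP2) or lower (BBX30). In ground Sku6, where BBX30 was lower, 8 of 11 were listed, with summed levels of 229 FPKM at 8 days and 513 FPKM at 4 days in the authors' deposited table. In flight Sku6 7 of 11 were listed, all lower at 8 days, with summed levels of 246 FPKM at 8 days and 796 FPKM at 4 days in the authors' deposited table. Flight Col-0 likewise had 7 of 11, all lower at 8 days, with 175 FPKM at 8 days and 380.4 FPKM at 4 days in the authors' deposited table. Both flight sums hold 2 loci of RBCS1A, while the ground Sku6 sum holds a single one, so the sums are not alike across comparisons. None of the listed markers was at 0 FPKM. In ground Col-0, where 0 of the 6 genes were listed, 4 of 11 markers were listed, all lower at 8 days. The listed markers of flight Sku6 ranged from LHCB1.3, 2.06-fold lower at 8 days, to the small-subunit Rubisco gene RBCS1B, 17.3-fold lower. ELIP1 was 1.67-fold higher there, all in the authors' deposited table. PIF5, a factor that promotes shade and dark growth, was 10.5-fold lower at 8 days in flight Col-0 (0.250 FPKM at 8 days and 2.62 FPKM at 4 days) in the authors' deposited table. The part of tissue makeup in the age entries was not tested.

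Sku6 was compared with Col-0 within each age and place. Only flight groups gave entries for the 6 genes, 3 of 24 possible cases, all ELIP genes and all lower in Sku6. At 8 days ELIP1 had 18.3 FPKM in Sku6 and 35.8 FPKM in Col-0 (log2 −0.97, q = 0.00750) and at 4 days 10.3 FPKM in Sku6 and 18.1 FPKM in Col-0 (log2 −0.82, q = 0.0255) in the authors' deposited tables. ELIP2 had 29.0 FPKM in Sku6 and 43.9 FPKM in Col-0 at 8 days (log2 −0.60, q = 0.0130) in the authors' deposited table. Over all loci tested, 0.371% were listed as lower in Sku6 in flight at 8 days, 0.608% on the ground at 8 days, 0.473% in flight at 4 days and 1.48% on the ground at 4 days. On the ground ELIP1 in Sku6 was 0.98 times its Col-0 level at 8 days and 1.27 times at 4 days, and neither was listed. The difference between flight and ground in the genotype effect was not tested. At 4 days in flight 5 of 11 green-tissue markers were listed, all higher in Sku6, with summed levels of 624 FPKM in Sku6 and 351 FPKM in Col-0 in the authors' deposited table. The share of all loci listed as higher in Sku6 was not worked out, so nothing is read from that count. At 8 days in flight 0 of 11 were listed. The root marker SCR was lower in Sku6 there, with 8.32 FPKM in Sku6 and 14.0 FPKM in Col-0 (log2 −0.75, q = 0.00750) in the authors' deposited table. The part of tissue makeup in the genotype entries was not tested. LAF1, a MYB factor of far-red signalling, was higher in Sku6 in 3 of the 4 genotype comparisons, with 20.8 FPKM in Sku6 and 8.15 FPKM in Col-0 in flight at 4 days in the authors' deposited table.

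The rest of the B-box family was looked at in flight against ground. Of the 30 other B-box genes, 2 were listed in 8-day Sku6, 2 in 8-day Col-0, 4 in 4-day Sku6 and 3 in 4-day Col-0, beside 2.51%, 4.05%, 4.45% and 7.21% of all loci listed in either direction. BBX24, also called STO, a repressor of HY5 action with a pair of B-boxes, was lower in flight in all 4. It had 93.8 FPKM in flight and 237 FPKM on the ground in 8-day Sku6, 137 in flight and 264 on the ground in 8-day Col-0, 55.2 in flight and 222 on the ground in 4-day Sku6, and 88.7 in flight and 239 on the ground in 4-day Col-0, in the authors' deposited tables. As for ELIP1 and ELIP2, its flight level was lowest in 4-day Sku6 and highest in 8-day Col-0. BBX6, a relative of CONSTANS, was lower in all 4 by 1.71-fold to 2.61-fold in the authors' deposited tables. Higher in flight in 4-day Sku6 were BBX7 at 13.7 FPKM in flight and 6.77 on the ground and BBX15 at 2.23 in flight and 0.702 on the ground in the authors' deposited table.

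Genes that act upstream of HY5 were counted next. Of 18 genes of photoreceptors and the COP1/SPA machinery, 0 were listed in 3 of the 4 flight comparisons and 2 (11.1%) in 4-day Col-0, where 7.21% of all loci were listed. In 4-day Col-0 the red-light receptor gene PHYB had 3.57 FPKM in flight and 5.63 FPKM on the ground and DET1, a repressor of light responses, had 11.4 in flight and 16.7 on the ground in the authors' deposited table. Of 12 PIF and far-red genes, HFR1, a factor that restrains the PIFs, was the 1 listed gene at 8 days and lower in flight in both genotypes, by 1.92-fold in Sku6 and 2.14-fold in Col-0 in the authors' deposited tables. In 4-day Col-0 PIF5 was higher, with 2.52 FPKM in flight and 0.753 on the ground, and LAF1 lower, with 8.17 in flight and 13.6 on the ground, in the authors' deposited table. In 4-day Sku6 0 of the 12 were listed.

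Listed genes of pathways known to be regulated by HY5 were lower in flight as well. Of 16 flavonoid and ultraviolet-response genes, 3 were listed in 8-day Sku6, 2 in 8-day Col-0, 6 in 4-day Sku6 and 6 in 4-day Col-0, and all were lower in flight. Over all loci tested, 1.43%, 2.8%, 2.28% and 4.11% were listed as lower in that order. MYB12, the activator of flavonol synthesis, was listed in all 4. It had 22.4 FPKM in flight and 71.9 FPKM on the ground in 8-day Sku6, 28.4 in flight and 63.2 on the ground in 8-day Col-0, 21.6 in flight and 95.2 on the ground in 4-day Sku6, and 25.7 in flight and 87.3 on the ground in 4-day Col-0, in the authors' deposited tables. SIG5, a light-induced sigma factor of chloroplast transcription, was lower by 2.70-fold, 2.07-fold, 4.04-fold and 3.30-fold in the same order, in the authors' deposited tables. Enzyme genes of the pathway had smaller folds at 4 days. Chalcone isomerase (CHI) was 1.85-fold lower in flight in Sku6 and 1.87-fold in Col-0 in the authors' deposited tables. Flavanone 3-hydroxylase (F3H) was 1.89-fold lower in Sku6 and flavonol synthase (FLS1) 1.83-fold lower in Col-0 in the authors' deposited tables. The list was named for its known link to HY5 and does not show what acted on these genes here.

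Among 7 other genes of the ELIP family and its relatives, 0 were listed in 8-day Sku6, 2 in 8-day Col-0, 2 in 4-day Sku6 and 3 in 4-day Col-0, all lower in flight. The shares of all loci listed as lower were 1.43%, 2.8%, 2.28% and 4.11% in that order. PSBS, the photosystem protein of heat dissipation, had 25.1 FPKM in flight and 48.2 FPKM on the ground in 8-day Col-0, 36.6 in flight and 61.2 on the ground in 4-day Sku6, and 27.0 in flight and 51.4 on the ground in 4-day Col-0, in the authors' deposited tables. SEP2 and OHP2, small light-stress proteins with the same kind of helix, were lower by at most 1.68-fold and 1.61-fold in the authors' deposited tables. These folds were smaller than those of ELIP1 and ELIP2 in the same comparisons. Of 16 clock genes, 4, 4, 4 and 2 were listed in the order 8-day Sku6, 8-day Col-0, 4-day Sku6 and 4-day Col-0. In that order 2.51%, 4.05%, 4.45% and 7.21% of all loci were listed in either direction. The morning gene LHY was lower in flight in all 4, by 1.33-fold to 1.75-fold, and the MYB-like gene EPR1 was lower by 5.90-fold in 8-day Sku6, 2.70-fold in 8-day Col-0 and 5.85-fold in 4-day Sku6 in the authors' deposited tables. The clock gene PRR9 was lower by 5.39-fold in 8-day Col-0, the largest clock decrease there. LUX had log2 fold changes of −1.07 in 8-day Sku6, −0.44 in 8-day Col-0 and −0.845 in 4-day Col-0. GI had −0.83 in 8-day Sku6 and −1.11 in 4-day Sku6. Where listed, PRR9, LUX and GI each had a larger decrease than LHY. RVE1 was higher in 4-day Sku6, with 5.40 FPKM in flight and 2.61 on the ground in the authors' deposited table. The time of day of each harvest was not in hand, and its part in the differences was not tested.

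**Figure D4:**
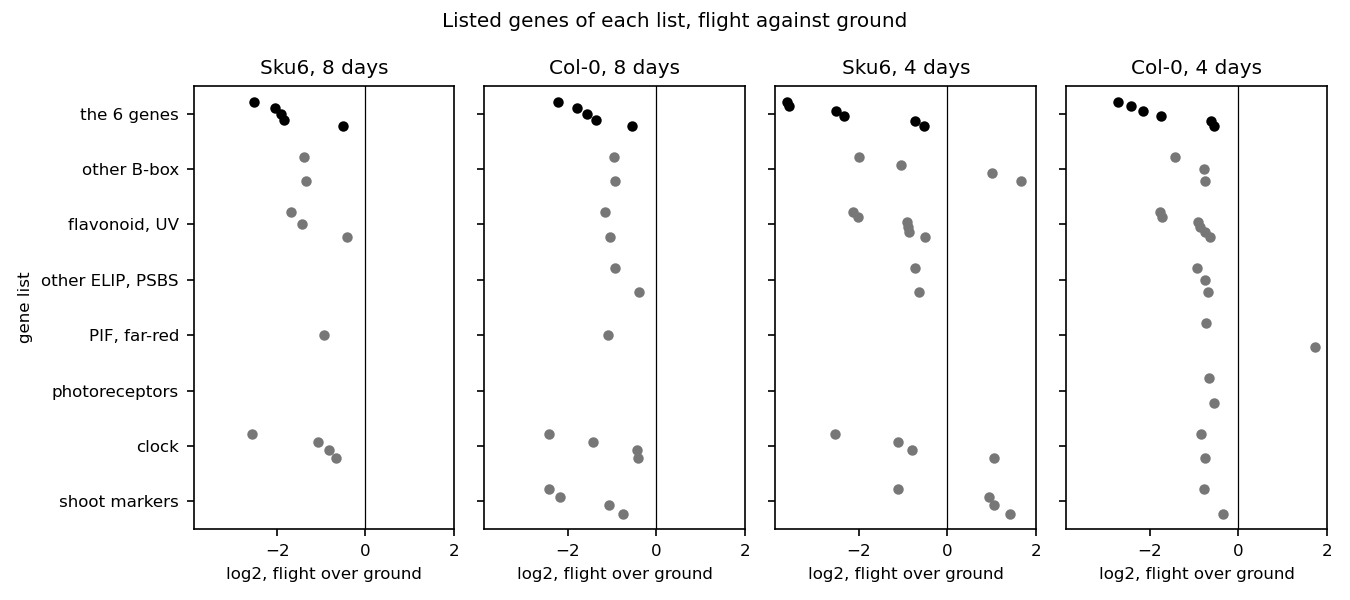
Deposited log2 fold change, flight over ground, of every listed gene of each list (down the page) in the 4 flight comparisons (panels). Each point is 1 listed gene, black for the 6 genes described here and grey for the others, and genes that are not listed have no point. The flavonoid and ultraviolet genes and the other ELIP genes all lie left of 0, and the shoot markers lie on both sides in 4-day Sku6.

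ELIP proteins belong to chloroplasts, so the markers of green tissue are given beside them. In 8-day Sku6 0 of 11 were listed for flight against ground, where ELIP1 was 5.72-fold lower in flight in the authors' deposited table. In 8-day Col-0 4 of 11 were listed, all lower in flight, with summed levels of 218 FPKM in flight and 411 FPKM on the ground in the authors' deposited table. In 4-day Sku6 4 of 11 were listed, 1 lower and 3 higher in flight, with summed levels of 152 FPKM in flight and 82.3 FPKM on the ground in the authors' deposited table. In 4-day Col-0 2 of 11 were lower, with 207 FPKM in flight and 267 FPKM on the ground in the authors' deposited table. Beside these counts, 2.51%, 4.05%, 4.45% and 7.21% of all loci were listed in either direction, in the same order of comparisons. No listed marker was at 0 FPKM, and no level was in hand for an unlisted marker. The part of tissue makeup in the flight differences was not tested. Of the 10 root markers 1 was listed in each Col-0 comparison and 0 in each Sku6 comparison, with SCR 1.32-fold higher in flight in 8-day Col-0 and WOX5 1.66-fold higher in 4-day Col-0 in the authors' deposited tables.

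The loci most like each gene over the 8 group levels were found among 591 single-gene loci with a level in every group, by Pearson's r of log2(FPKM + 1). The r values are descriptions over 8 groups that share their processing and, in part, their tables. The 5 genes with 8 levels were themselves alike. They had been picked for their values in these same groups, so nothing is read from their likeness. ELIP1 and ELIP2 had r = 0.99 and were each other's nearest, BBX30 and BBX31 had r = 0.98, and HY5 had 0.94 with both of those after rounding and 0.90 with both ELIP genes. The median r with the 590 other loci was 0.16 to 0.19. Nearest to BBX30 was AT4G18422 (r = 0.99), annotated as an uncharacterized protein, with 3.48 FPKM in flight and 28.2 on the ground in 4-day Sku6 in the authors' deposited tables. Nearest to BBX31 was AT3G44450 (r = 0.99), which had no symbol in the annotation used. It had 9.58 FPKM in flight and 32.5 on the ground in 4-day Sku6 in the authors' deposited tables. After ELIP2, the loci nearest to ELIP1 were BBX24 (r = 0.99), the ubiquitin ligase gene RHA2B (0.98) and the flavonoid glucosyltransferase gene UGT78D2 (0.98). ELIP2 was next most like UGT84A2 (0.99), a glucosyltransferase gene of sinapate metabolism, and MYB12 (0.98). HY5 was most like the AP2-type factor gene RAP2.7 (r = 0.96), whose levels were 24.8 FPKM in flight and 33.1 on the ground in 8-day Sku6 in the authors' deposited tables.

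**Figure D5:**
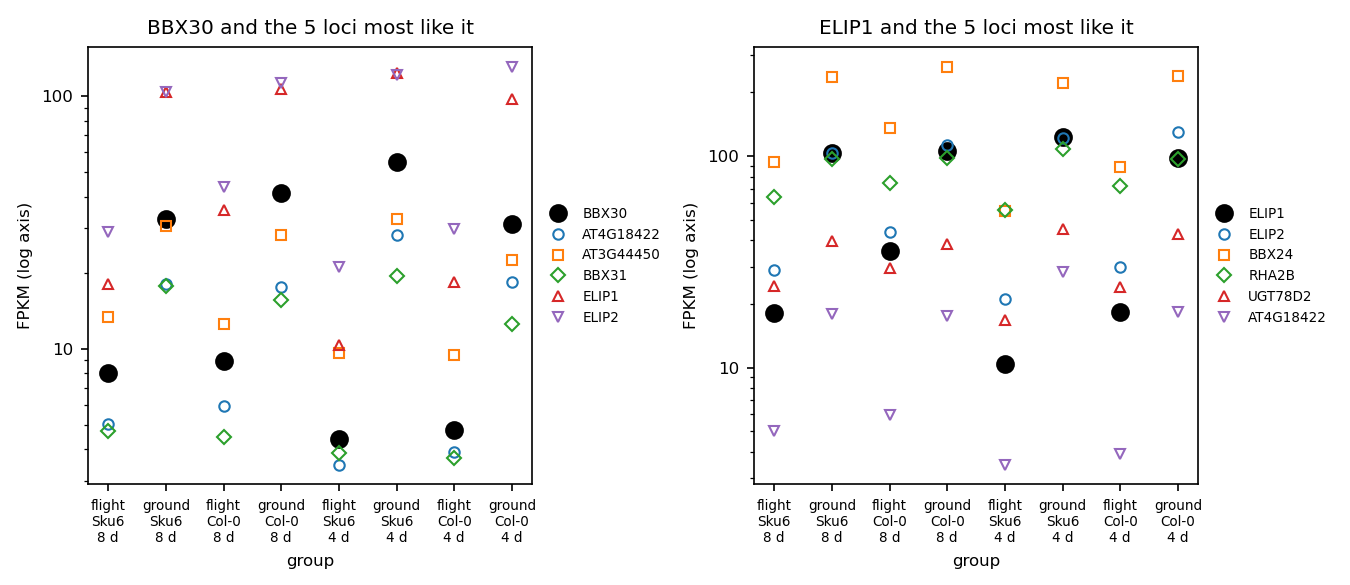
Group levels in FPKM (log axis) of BBX30 (left) and ELIP1 (right), as filled points, with the 5 loci most like each, as open symbols. Groups run across in pairs of flight and ground. In every pair the flight level is below the ground level for all loci drawn, and BBX24 stands above ELIP1 in each group.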

How the data were processed

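Root RNA of 32 samples in 8 groups of 4 was sequenced. Per the submitters' processing notes, STAR 2.5.1b, Trimmomatic 0.36, FastQC 0.11.2, Cufflinks, Cuffdiff and Picard were among the tools and TAIR10 was the build. The sources used here do not give their order or settings. The authors deposited 12 tables of 12215 entries, each with FPKM values of 2 groups, their log2 fold change and its p- and q-value (p-value adjusted for all loci), per the file headers. The deposited test score was not used. The smallest p-value the authors deposited was 5e-05, so many loci share the lowest q of a table.

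Signs were set to flight over ground, 8 over 4 days and Sku6 over Col-0. A gene was called where the authors' q was at most 0.05, and no test was added, since depth and replicate values were not in hand. The number of loci tested, 19464 to 20035 a table, was worked back from p and q, a step tested on simulated data. Levels given for a comparison are those of its own table. Level figures, ranges and ratios of the 6 genes, and the likeness measure with its levels, used means over the tables listing a group. The 4143 levels listed in several tables differed by at most 1.04-fold. The members and gene lists were chosen with earlier results of these data known. All 6 genes are named in every comparison, with at most 4 called genes per list and comparison and at most the 5 loci most like each gene. Called genes of the lists are not all named, and some left out have larger folds than some named. Promoters, exons and gene positions come from the RefSeq TAIR10.1 genome; all 11183 single-gene entries of protein-coding genes overlapped their gene there. Python 3.11.15, pandas 2.3.3, numpy 2.4.6 and Biopython 1.88 were used. Other thresholds, an added 1 FPKM, a minimum of 1 FPKM and leaving out merged loci were tried.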

Additional observations from a re-analysis of the deposited data

How the results depend on the processing

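The count of flight entries of the 6 genes, 22, was 18 at a q-value of at most 0.01, 16 with a minimum absolute log2 fold change of 1 (with and without 1 FPKM added), 20 without merged loci, which drops HYH, and 22 with at least 1 FPKM in both groups. The 4 age entries became 1 at the stricter q-value and 0 with the minimum fold change, with or without 1 FPKM added. The 3 genotype entries likewise became 1, 0 and 0. Entries of the gene lists and markers over all 12 comparisons numbered 145, and 68 with the minimum fold change or 60 with 1 FPKM added as well. Under these stricter criteria fewer entries can pass by construction. All 29 fold changes of the 6 genes kept their sign with 1 FPKM added, and the largest shrank by 0.27 log2, BBX30 in 4-day Sku6 (−3.35 for flight over ground). No paired analysis was possible because the tables hold 1 value per group, and for the same reason no replicate could be left out. Depth per sample was not in hand, so the precision of low levels such as BBX31 in flight is unknown.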
